A study of Mus musculus with 6 samples.

Results

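The 43 genes described here make ribosomes or stand among the main proteins of the nucleolus. They were picked by symbol from the 23538 genes of the deposited tables, and all 43 were found on 1 row each. The libraries were made by CEL-Seq2, a method that reads transcripts from a tag at their 3' end, from sorts of 15 flash-frozen mouse bone marrow cells. They cover 6 populations in 2 genotypes, wild type and Mof heterozygous (Mof -/+ in the labels), with 3 libraries per population and genotype and 36 in all. Mof (gene symbol Kat8) acetylates lysine 16 of histone H4. The labels give no strain, age or sex. The stem cells (HSC) were sorted as Lin- Sca-1+ cKit+ (LSK) cells that were CD34-, Flt3-, CD48- and CD150+. MPP2, MPP3 and MPP4 (multipotent progenitors) were CD34+ CD48+ LSK cells, with CD150 on MPP2 and Flt3 on MPP4. The myeloid progenitors (CMP) and the megakaryocyte-erythroid progenitors (MEP) were Sca-1-, with CD34 and low CD16/32 on CMP and neither on MEP. The libraries were pooled as HSC, as the 3 MPP populations and as CMP with MEP, apart for each genotype. Pool and genotype therefore cannot be told apart, and neither can pool and the step from LSK cells to CMP and MEP. Whether the 3 libraries of a group stem from different mice is not stated in the labels, so each p-value measures only the spread between libraries, which may be technical.

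Ribosomes are built in the nucleolus, where RNA polymerase I copies the ribosomal DNA into a long precursor RNA. The UtpA complex and the small subunit processome fold and cut its 18S end, small nucleolar ribonucleoproteins (snoRNPs) modify it under the guidance of box C/D or box H/ACA RNAs, and the 60S assembly factors process the rest into the large subunit. Stem cells are known for a low rate of protein synthesis, and dividing progenitors for a higher one. MYC is a known activator of this gene program.

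Total counts ran from 1577 to 123765 per library (median 41227), and every CMP and MEP library held at least 34996. The 6 shallowest libraries were all LSK: the 3 wild-type MPP2 libraries, wild-type MPP3 replicates 1 and 2, and heterozygous HSC replicate 2, in which a single count was worth 634 CPM (counts scaled to a common library size). Levels below are CPM of the recovered counts, without division by gene length, since reads come from a tag at the 3' end. They mainly serve to compare a gene across libraries, and ranks between genes are ranks of counts. Whether reads or molecules were counted is not given in the sources here. Kat8 was too sparse to check the genotype labels, with 12 of 656112 counts in wild-type and 11 of 1115406 in heterozygous libraries. The defining markers fitted the sorts in part: summed markers of granulocyte-monocyte precursors were 250 CPM in LSK and 2295 in CMP and MEP libraries, and those of erythroid precursors 260 and 1523. The granulocyte-monocyte sum was 3673 CPM in CMP and 916 in MEP, but reached 2501 in a wild-type MEP library. The erythroid sum was 579 CPM in CMP and 2467 in MEP, but reached 1341 in a heterozygous MPP4 library. Summed LSK sort markers were alike, at 711 CPM in LSK and 737 in CMP and MEP libraries. Wild-type HSC replicate 3 held only 98.1 CPM of HSC markers. Mature neutrophil markers exceeded 10000 CPM in 7 libraries (wild-type MPP2 1, MPP3 1 and 3, MPP4 3, MEP 2 and 3, and heterozygous MEP 3), and their part in the results was not tested beyond leaving these libraries out.

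The members ranged in mean level from 1705 CPM for Npm1 to 21.5 CPM for Rrp12, the only member under the minimum mean level for testing. Npm1 (nucleophosmin, a histone and ribosome chaperone) made up 21.1% of all member counts and Ncl (nucleolin, which binds the ribosomal precursor RNA) 15.5%. Next came Nip7, a 60S assembly factor, with 9.04% (a mean of 921 CPM, against 425 CPM for Nop56). The promoters below are shown for a member that was higher in CMP and MEP than in LSK cells under nearly every setting tried (Nop2), for 2 partners in the H/ACA snoRNP (Gar1 and Nop10), and for the abundant member that did not follow the others (Nip7). Each is the 90 bases before the RefSeq start site (GRCm38.p6, the mm10 build), 5′ to 3′ along the gene, and capitals mark CACGTG (the E-box that MYC binds) and CCGGAAG or its reverse complement CTTCCGG (a core that ETS factors bind).
Nop2 (chr6:125131793-125131882, plus strand): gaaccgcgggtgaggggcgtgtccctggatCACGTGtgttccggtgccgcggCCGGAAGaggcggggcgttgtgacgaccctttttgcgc
Gar1 (chr3:129831397-129831486, minus strand): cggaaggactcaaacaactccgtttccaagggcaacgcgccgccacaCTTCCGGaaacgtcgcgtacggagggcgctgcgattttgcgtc
Nop10 (chr2:112261836-112261925, plus strand): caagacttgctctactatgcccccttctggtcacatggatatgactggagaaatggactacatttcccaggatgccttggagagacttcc
Nip7 (chr8:107056787-107056876, plus strand): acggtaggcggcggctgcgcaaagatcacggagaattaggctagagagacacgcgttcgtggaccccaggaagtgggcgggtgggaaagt

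The stretch of Nop2 held both motifs, that of Gar1 the ETS core alone, and those of Nop10 and Nip7 neither, though Nip7 has the ETS core elsewhere in its longer window. Of the 43 members, 36 had a RefSeq window of 250 bases before to 50 after the start. CACGTG, read on either strand, stood in 7 of these 36 genes (19.4%), against 12.7% of the tested genes with a window and 7.15% of all 32851 windows. The 7 were Nop2, Utp20, Pes1, Mybbp1a, Tsr1, Utp18 and Wdr43. CCGGAAG, on either strand, stood in 13 of 36 (36.1%), against 23.7% of tested genes and 8.86% of all windows. The 13 were Nop2, Gar1, Nip7, Nhp2, Heatr1, Nolc1, Tsr1, Utp18, Utp3, Ebna1bp2, Noc2l, Noc3l and Rrp15. Neither motif was searched for outside these windows. These are matches of letters, not sites shown to be bound.

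The summed level of the 43 members was higher in CMP and MEP than in most LSK libraries. In the 24 LSK libraries it ran from 3024 to 11202 CPM around a median of 7460, and in the 12 CMP and MEP libraries (the late libraries below) from 8687 to 15869 around a median of 10161. The means were 7148 ± 2186 (SD, n = 24) and 10868 ± 2042 CPM (SD, n = 12). The ranges overlapped: the highest LSK library was wild-type MPP4 replicate 1, and the lowest late library was wild-type MEP replicate 2.

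Among single populations MEP had the highest sum, 11691 ± 2568 CPM (SD, n = 6), followed by CMP at 10046 ± 979. MPP3 followed with 7917 ± 1718, MPP2 with 7069 ± 2217, HSC with 6820 ± 1789 and MPP4 with 6787 ± 3149 CPM. Neighbours in this order other than CMP and MPP3 differed by less than their spread. Without Npm1 and Ncl, the other 41 members summed to 4473 ± 1312 CPM in LSK and 6990 ± 1290 in CMP and MEP. In pools of cells, fewer cells of a type and less RNA of these genes per cell cannot be told apart.

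**Figure D1:**
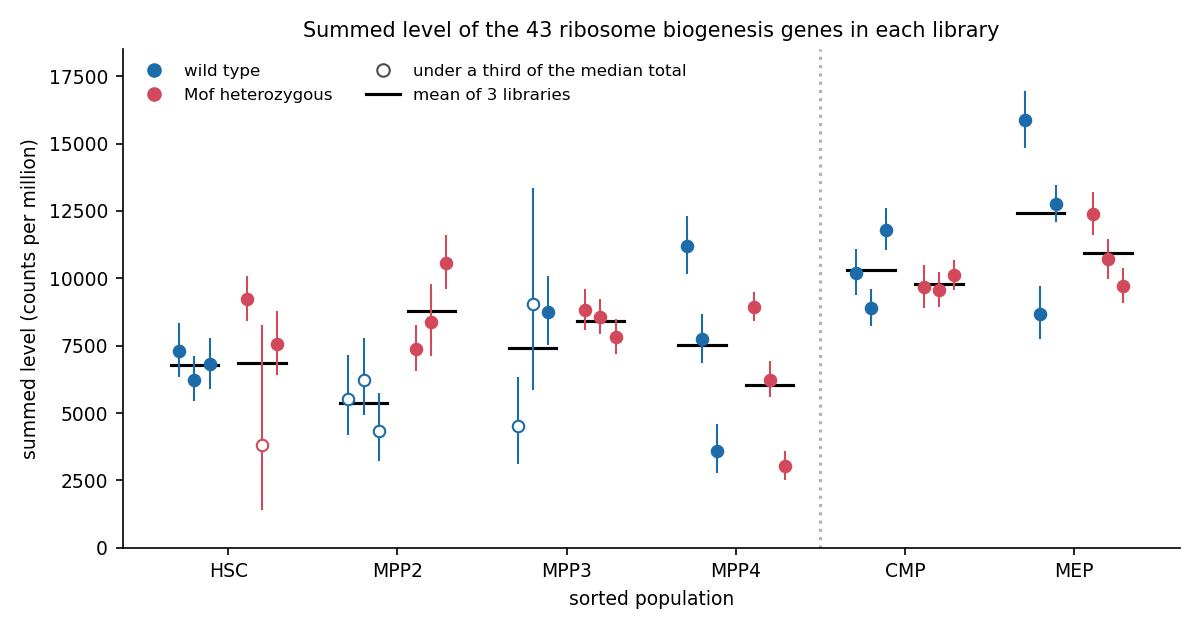
Summed level of the 43 members (CPM, linear axis from 0) in each of the 36 libraries by population and genotype, with 95% Poisson intervals of the count (counting error only), the mean of 3 libraries as a line, and the 6 shallow libraries as open points. All 12 CMP and MEP libraries, right of the dotted line, sit at 8687 CPM or above, while the LSK libraries spread from 3024 to 11202 CPM.

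Gene by gene, 15 of the 43 members rose in CMP and MEP relative to the mean of the LSK populations over both genotypes (limma, adjusted p under 0.05), and 0 fell. Of all 6501 genes tested, 7.83% were called in this comparison and 6.12% were called higher. The log2 difference was positive for 42 of the 43 members, with a median of 0.90 against 0.26 over all genes tested. Of all tested genes 72.5% were positive. At an unadjusted p under 0.05 there were 30 members, against 24.0% of all tested genes. Leaving out heterozygous MEP replicate 1 lowered the 15 to 9, and no other single library moved it past 1.5 times (9 to 22). The folds given below are on the log2(value + 1) scale after rescaling to a common total. They differ from the ratio of pooled counts, in which deep libraries weigh more. Most called members have a fold above that ratio, but Bysl, Wdr75 and Wdr12 have one below it. The ratio, CMP and MEP over LSK, is therefore given for each called member.

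The 4 proteins of the box H/ACA snoRNP, which guides pseudouridylation of ribosomal RNA, included 3 of these 15. Nhp2, a core RNA-binding protein of the particle, ran from 0 to 154 CPM in LSK libraries (median 96.4), from 158 to 227 in CMP (median 192) and from 137 to 317 in MEP libraries (median 239.8). Of the 12 late libraries, 11 stood above every LSK library, and no LSK library reached the late median. The fold was 2.72 (log2 1.44, SE 0.33, adjusted p = 0.0037) and the ratio of pooled counts 2.08. Nop10, the smallest protein of the particle, had LSK medians from 34.9 CPM in MPP3 to 178 in MPP2, against 219.9 in CMP and 304 in MEP libraries. Its LSK libraries reached from 0 to 217 and its late libraries from 119 to 423 CPM, so that the ranges met. Nop10 was 2.71-fold higher (log2 1.44, SE 0.34, adjusted p = 0.00476), or 2.0-fold in pooled counts. Gar1, a further core protein of the particle, was higher by log2 1.10 (SE 0.35, adjusted p = 0.0371; pooled ratio 1.59).

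Dkc1 (dyskerin), the pseudouridine synthase itself, lay just outside the threshold with log2 1.04 (SE 0.35, adjusted p = 0.0524). Its level ran from 0 to 724 CPM in LSK and from 314 to 704 in CMP and MEP libraries. Of the box C/D particle, which methylates ribosomal RNA, Fbl (fibrillarin, the methyltransferase) rose by log2 1.09 (SE 0.36, adjusted p = 0.0450; pooled ratio 1.4). Its population medians ran from 139 CPM in HSC to 406 in MEP. Its partners Nop56 and Nop58 were at log2 1.06 (adjusted p = 0.0507) and 0.92 (adjusted p = 0.0942). Nop56 had its highest values in MEP, from 576 to 863 CPM, against 0 to 679 in LSK libraries.

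Among the abundant nucleolar proteins and regulators, 2 of 6 rose, and these were not the most abundant. Gnl3 (nucleostemin, a nucleolar GTPase first described in stem cells) ran from 0 to 364 CPM in LSK libraries with a median of 172, and was listed at 0 counts in 7 of the 24. In CMP it ran from 194 to 395 and in MEP from 257 to 546 CPM. Every late library exceeded the LSK median, and 1 LSK library exceeded the late median. Gnl3 was 3.05-fold higher (log2 1.61, SE 0.36, adjusted p = 0.00309), or 1.64-fold in pooled counts. Ddx21, an RNA helicase of ribosomal DNA transcription and snoRNA release, rose by log2 1.17 (SE 0.36, adjusted p = 0.0353; pooled ratio 1.41).

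Npm1 itself did not pass. It ran from 0 to 2820 CPM in LSK libraries (median 1444) and from 1657 to 3253 in CMP and MEP libraries (median 2282). The 0 was heterozygous HSC replicate 2, the shallowest library, and 2 of 24 LSK libraries exceeded the late median. Its log2 difference was 0.93 (SE 0.32, adjusted p = 0.0600), and 1.46 as a ratio of pooled counts. Ncl ran from 277 to 2037 CPM in LSK and from 1057 to 2695 in late libraries, with a log2 difference of 0.43 (SE 0.25, adjusted p = 0.294). Mybbp1a, a MYB-binding protein of the nucleolus, was at log2 0.97 (adjusted p = 0.0563) and Nolc1, a chaperone of snoRNPs, at 0.90 (adjusted p = 0.112).

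The core of RNA polymerase I showed no call. Its largest subunit Polr1a was at log2 0.20 (SE 0.27, adjusted p = 0.687, 95% interval of the log2 difference -0.35 to 0.75), and the second largest, Polr1b, at 0.38 (SE 0.31, adjusted p = 0.468, interval -0.24 to 0.99). Both were sparse, with 58 and 77 counts over the 36 libraries. Differences of either sign within these intervals were not excluded.

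In the UtpA complex, which binds the precursor as it is transcribed, Heatr1 and Wdr75 rose and Wdr43 and Utp15 did not pass. Heatr1 had LSK medians from 12.5 CPM in MPP3 to 100.4 in MPP2, and medians of 124 in CMP and 116 in MEP libraries, with overlapping ranges. Its log2 difference was 1.15 (SE 0.31, adjusted p = 0.0122) and its pooled ratio 2.03. Wdr75 was at log2 1.03 (SE 0.30, adjusted p = 0.0214, pooled ratio 2.13), Wdr43 at 0.90 (adjusted p = 0.0995) and Utp15 at 0.08 (adjusted p = 0.900).

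Of the 11 members of the small subunit processome and 40S maturation, 10 were tested and 2 rose. Bysl (bystin), needed for late 40S maturation, was at log2 0.97 (SE 0.30, adjusted p = 0.0345, pooled ratio 2.27). Tsr1, a factor of the cytoplasmic 40S precursor, was at log2 1.02 (SE 0.32, adjusted p = 0.0345, pooled ratio 1.6). The others lay between log2 0.43 and 0.80: Utp6 and Utp18 were lowest, and Nop14 and Utp14a highest, of which Utp14a had an adjusted p of 0.0917. All 11 were positive over the 36 libraries, Rrp12 among them with log2 0.54 and no test. Among the deeper libraries described below, Noc4l and Utp6 were negative (log2 -0.049 and -0.15).

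The 60S assembly factors gave 5 of 13. Nop2, the methyltransferase of the large ribosomal RNA that is also known as a proliferation antigen, had the smallest p of all members. It was listed at 0 in 13 of the 24 LSK libraries and reached 131 CPM there in wild-type MPP4 replicate 1, whereas all 12 late libraries held counts, from 56.6 to 144 CPM. Its medians were 91.1 CPM in CMP and 105 in MEP, and 1 LSK library exceeded the late median. Nop2 was 2.88-fold higher (log2 1.53, SE 0.29, adjusted p = 0.000321), or 2.44-fold in pooled counts.

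Bop1, Pes1 and Wdr12 form the PeBoW complex, which processes the 5.8S and 28S ends of the precursor, and 2 of its 3 proteins passed. Bop1 ran from 0 to 138 CPM in LSK and from 32.5 to 171 in late libraries (log2 1.31, SE 0.30, adjusted p = 0.00365, pooled ratio 2.11). Wdr12 had a median of 200 CPM in MEP, with every MEP library at 168 or above, and LSK medians from 34.8 to 76.0 (log2 1.29, SE 0.34, adjusted p = 0.0110, pooled ratio 2.48). Pes1 was at log2 0.90 (SE 0.31, adjusted p = 0.0566). Gnl2, a GTPase related to Gnl3, rose by log2 1.2 (SE 0.29, adjusted p = 0.00495, pooled ratio 1.68), and Rrs1, which brings the 5S particle to the precursor, by 1.02 (SE 0.28, adjusted p = 0.0165, pooled ratio 1.69). The other 60S factors besides Nip7 were Ebna1bp2 (log2 0.91, adjusted p = 0.117), Nop16 (0.78), the helicase Ddx18 (0.77), Rrp15 (0.69), Noc3l (0.49) and Noc2l (0.19), none of which passed.

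**Figure D2:**
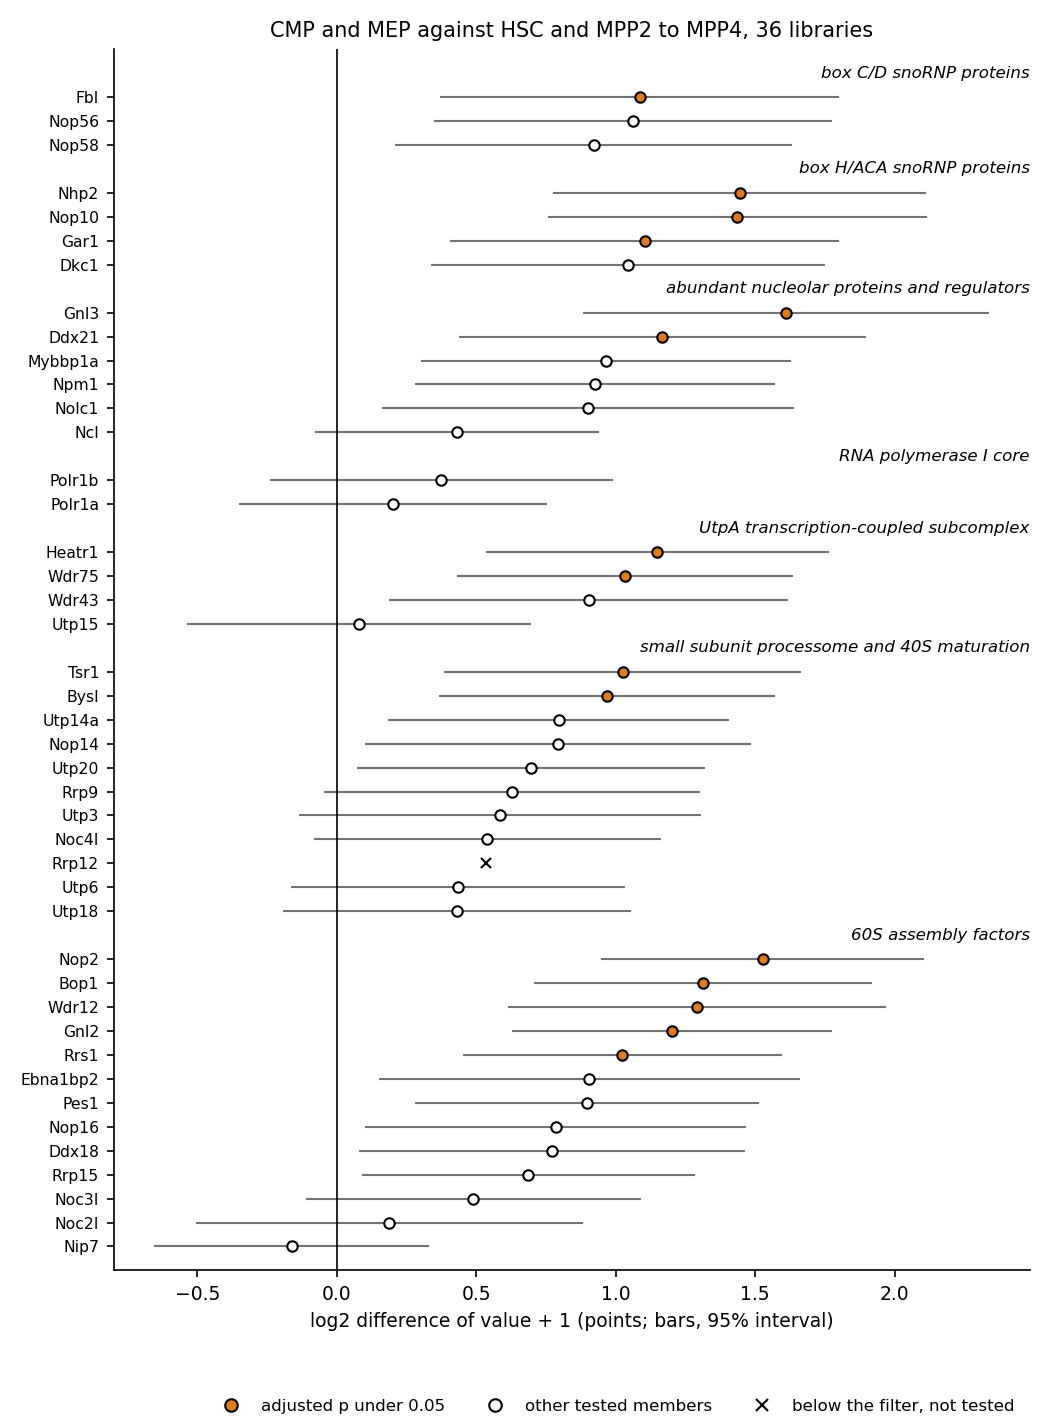
Log2 difference of CMP and MEP minus LSK libraries (limma on log2(value + 1), bars are 95% intervals) for each member, grouped by role; filled points passed an adjusted p of 0.05, and a cross marks Rrp12, which was not tested. The 15 filled points lie between log2 0.97 and 1.61, and Nip7 is the only member left of 0.

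Nip7 was the only member with a negative log2 difference in this comparison over the 36 libraries. In pooled counts it was not alone: the ratio, CMP and MEP over LSK, was 0.907 for Nip7, 0.871 for Polr1a and 0.98 for Utp6. The level of Nip7 ran from 601 to 2537 CPM in LSK and from 610 to 1074 in CMP and MEP libraries. The 2537 was heterozygous HSC replicate 2, the shallowest library, where a single count was worth 634 CPM. The population medians lay between 752 CPM (CMP) and 1000 (HSC). Neither group stood apart. The log2 difference was -0.16 (SE 0.24, adjusted p = 0.722, 95% interval -0.65 to 0.33), and it turned positive with TMM scaling (0.27) and in edgeR on the same genes (0.19). Across the 36 libraries, which share depth and scale, the Pearson r of Nip7 with each of the other 9 abundant members ran from -0.60 to -0.27 (median -0.38), on log2 values and as a description. Pairs among those 9 had r from 0.38 to 0.79 (median 0.65). Heterozygous HSC replicate 2 is among the 36, and r was not computed without it. The members most like Npm1 were Nop56 (r = 0.79), Dkc1 (r = 0.78) and Nop58 (r = 0.74), over 36 libraries.

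**Figure D3:**
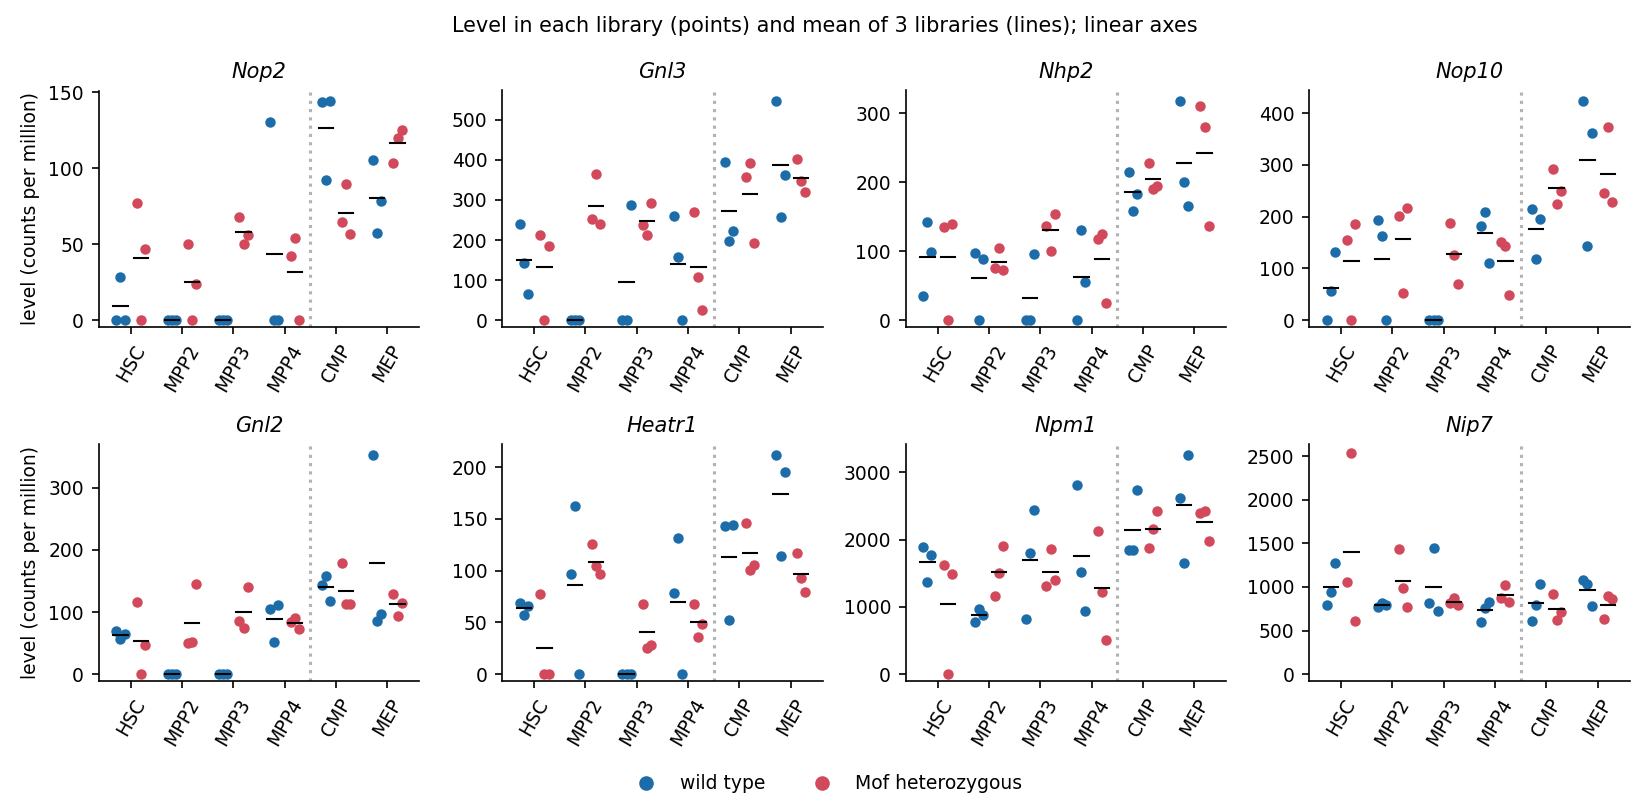
Level (CPM, linear axes) of 8 members in every library by population and genotype, with the mean of 3 libraries as a line and the dotted line between LSK and late populations. Nop2 has 0 counts in 13 of the 24 LSK libraries and in none of the late ones, whereas the levels of Nip7 are alike on both sides of the dotted line.

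The depth of the libraries moved with this comparison, since all 6 shallow libraries were LSK. Among libraries with a total of at least 34996, the shallowest of the late libraries, 12 LSK and 12 late libraries remained, 3 of the LSK ones wild type. There, 11 members were called (9.40% of genes tested). Of the first 15, Bop1, Gnl3, Nhp2, Nop10, Nop2 and Wdr12 were among them, and Dkc1, Ebna1bp2, Nolc1, Nop56 and Npm1 came in. Folds were then 2.22 for Bop1 (adjusted p = 0.00437), 2.0 for Nhp2 (adjusted p = 0.00691), 1.99 for Wdr12 (adjusted p = 0.00214), 1.81 for Nop2 (adjusted p = 0.0349), 1.72 for Nop10 (adjusted p = 0.0121) and 1.65 for Gnl3 (adjusted p = 0.0309). Npm1 was 1.48-fold higher in these deeper libraries (adjusted p = 0.0228). The 9 that lost their call were Gnl2 (1.44-fold, adjusted p = 0.152), Wdr75 (1.57-fold, adjusted p = 0.213), Tsr1 (1.6-fold, adjusted p = 0.179), Bysl (1.51-fold, adjusted p = 0.169), Rrs1 (1.59-fold, adjusted p = 0.0887), Ddx21 (1.48-fold, adjusted p = 0.0824), Gar1 (1.63-fold, adjusted p = 0.0747), Heatr1 (1.54-fold, adjusted p = 0.0644) and Fbl (1.56-fold, adjusted p = 0.0625). With 1 of the 36 libraries left out in turn, Fbl lost its call in 23 fits, Gar1 in 14, Tsr1 in 11, Bysl and Ddx21 in 10 each and Wdr75 in 2 (without wild-type CMP replicate 2 or heterozygous MEP replicate 1), and the other 9 of the 15 in 0. The members' median stood 0.52 above the median of all tested genes in the deeper libraries, against 0.64 in all 36 libraries. Of 42 members tested in the deeper libraries, 37 were positive and 5 negative. Without the 6 shallow libraries 39 were positive and 3 negative.

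Of the markers of other cells, 1 of 7 mature neutrophil genes rose and 4 of 5 mature B cell genes fell in the same comparison. Among T and NK cell markers Nkg7 rose (log2 1.61, limma adjusted p = 0.000415), and their sum had medians of 62.4 CPM in LSK and 163 in late libraries. Macrophage markers summed to means of 413 and 152 CPM, with medians of 84.2 and 124. Summed mature neutrophil markers ran from 0 to 32982 CPM in LSK and from 143 to 31289 in late libraries, with medians of 123 and 299, and mature B cell markers from 0 to 4515 and from 0 to 4343, with medians of 805 and 59.2 CPM. Without the 7 neutrophil-rich libraries 11 members were called, 10 of them among the first 15. Of all genes, 341 of 6514 tested were called there. The part of the B cell, T and NK cell and macrophage markers was not tested.

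Wild-type libraries gave 8 calls, all higher, with 3.20% of all genes called: Nop2, Gnl3, Gnl2, Bop1, Nhp2, Nop10, Ddx21 and Rrs1. The spread in this test and in the heterozygous one came from all 36 libraries. Nop2 was 4.09-fold higher (log2 2.03, adjusted p = 0.00172), and all 43 members were positive (69.1% of all tested genes were). In the heterozygous libraries limma called 0 members (0.400% of all genes), with 9 at an unadjusted p under 0.05, 39 of 43 positive and a median of 0.68. Over all tested genes there, 9.61% had such a p, 68.5% were positive and the median was 0.23. Leaving out single libraries moved the 8 to between 3 (without wild-type MEP replicate 1) and 14 (without wild-type MPP3 replicate 3), and wild-type MPP2 2, MPP4 3, CMP 1, 2 and 3 and MEP 3 also moved it past 1.5 times (13, 5, 4, 4, 5 and 4). The difference between the genotypes was itself tested and gave 0 calls (0% of all genes). It was negative for 35 of 43 members (median -0.44, against -0.08 over all tested genes), the lowest adjusted p was 0.998, and only Gnl2 had an unadjusted p under 0.05 (log2 -1.15). Wild-type LSK libraries were the shallower ones, with a median total of 19439 counts against 46662 in heterozygous LSK libraries, and the part of depth in this difference was not tested.

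**Figure D4:**
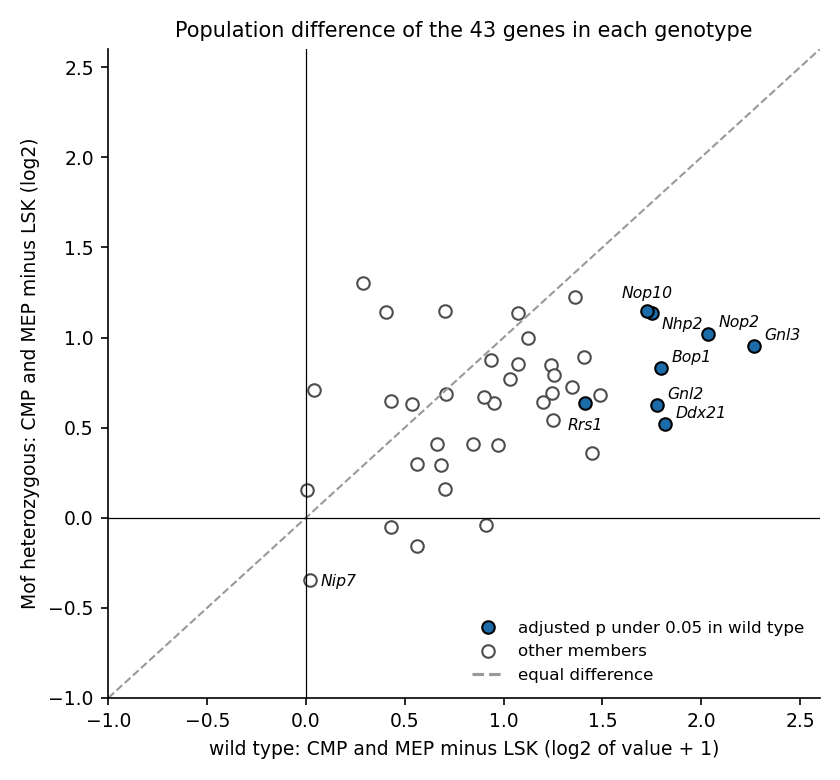
Log2 difference of CMP and MEP minus LSK for each member in wild-type libraries (horizontal axis) and in Mof heterozygous libraries (vertical axis), with a dashed line of equal values and the 8 members called in wild type as filled points. All 43 members lie right of 0 and 39 above 0; the test of the difference between the axes called 0.

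Within pools, the members could be compared without a change of pool. MEP minus CMP gave 0 calls in limma and 0 members at an unadjusted p under 0.05 (0.0154% of all genes called), with 35 of 43 positive (46.6% of all tested genes) and a median of 0.17 against -0.03 over all tested genes. The largest value was Wdr12 at log2 0.82. Among MPP2, MPP3 and MPP4 limma called 0 members (0.585% of all genes). Single populations against the mean of the other 5, over both genotypes, gave 0 calls for MEP and 0 for CMP (0.446% of all genes each). In MEP 40 of 43 members were positive, 21 at an unadjusted p under 0.05 (65.7% and 10.4% of all tested genes), with Wdr12 highest (log2 1.53, adjusted p = 0.0923). In CMP 41 of 43 were positive (72.6% of all tested genes).

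Across all 6 populations of both genotypes, the moderated F test called 5 members, Nop10, Heatr1, Bop1, Nop2 and Gnl2 (4.14% of all genes). In wild type it called Nop10, Gnl3, Bop1, Nop2 and Gnl2 (3.77%), and in heterozygous libraries 0 (0.754%). These counts rest on few libraries: 17 of 36 moved the 5 over both genotypes past 1.5 times when left out (1 without wild-type MEP replicate 1 to 11 without heterozygous HSC replicate 1), and the wild-type count went to 10 or 11 without heterozygous HSC replicate 2 or wild-type MPP3 replicate 3 and to 3 without wild-type CMP replicate 1 or 3. The lower calls of single groups fell on shallow ones. Wild-type MPP2 was lower in Gnl3 (log2 -2.73, adjusted p = 0.0216) and Gnl2 (log2 -1.92, adjusted p = 0.0417), with 1.22% of all genes called, and both genes had 0 counts in its 3 libraries. Wild-type MPP3 was lower in Nop10, Ddx21, Heatr1, Gnl2 and Pes1 (log2 -2.63 to -1.82), with 4.74% of all genes called. Heterozygous HSC was lower in Npm1 (log2 -2.09, adjusted p = 0.0425), with 1.75% called. Its 3 libraries held 1619, 0 and 1491 CPM of Npm1, so that replicate 2 alone stood apart.

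The comparison of genotypes called no member. Averaged over the 6 populations, limma called 0 of 43 members (42 tested; 0.0776% of all genes, 5 of 6444), with 2 at an unadjusted p under 0.05 (10.7% of all tested genes). In edgeR (1.90% of its 1633 genes) and DESeq2 (2.65%) 0 members were called too, but each of these tested only 16 members. The difference, heterozygous minus wild type, was positive for 29 members and negative for 14, or 67.4% positive against 67.3% of all tested genes. The members' median was log2 0.21 against 0.12 over all tested genes. Summed levels were 8306 ± 3206 CPM (SD, n = 18) in wild-type and 8471 ± 2321 CPM (SD, n = 18) in heterozygous libraries.

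Gnl3 was highest on average, at log2 0.74 (SE 0.29, adjusted p = 0.323), followed by Gar1 at 0.59 (SE 0.27, adjusted p = 0.419), and Utp14a was lowest at -0.41. Npm1 was at log2 -0.20, Ncl at -0.03 and Nip7 at 0.06, and each of these 3 changed sign under another setting (Npm1 to 0.019 in edgeR, Ncl to 0.16 with TMM scaling, Nip7 to -0.029 without the 6 shallow libraries). Summed mature neutrophil markers (7 of 7 genes found) ran from 0 to 32982 CPM in wild-type libraries, with a median of 633 and a mean of 7680, and from 0 to 27630 CPM in heterozygous libraries, with a median of 231 and a mean of 1899. The means rest on the 7 neutrophil-rich libraries, 6 of them wild type. Mature B cell markers (5 of 6 genes found) ran from 0 to 4515 and from 0 to 3661 CPM, with medians of 636 and 378. On average over populations limma called 0 genes of either list between genotypes, though all 7 and all 5 were lower in heterozygous libraries, 7 and 3 of them at an unadjusted p under 0.05. Their part in the members' values was not tested.

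**Figure D5:**
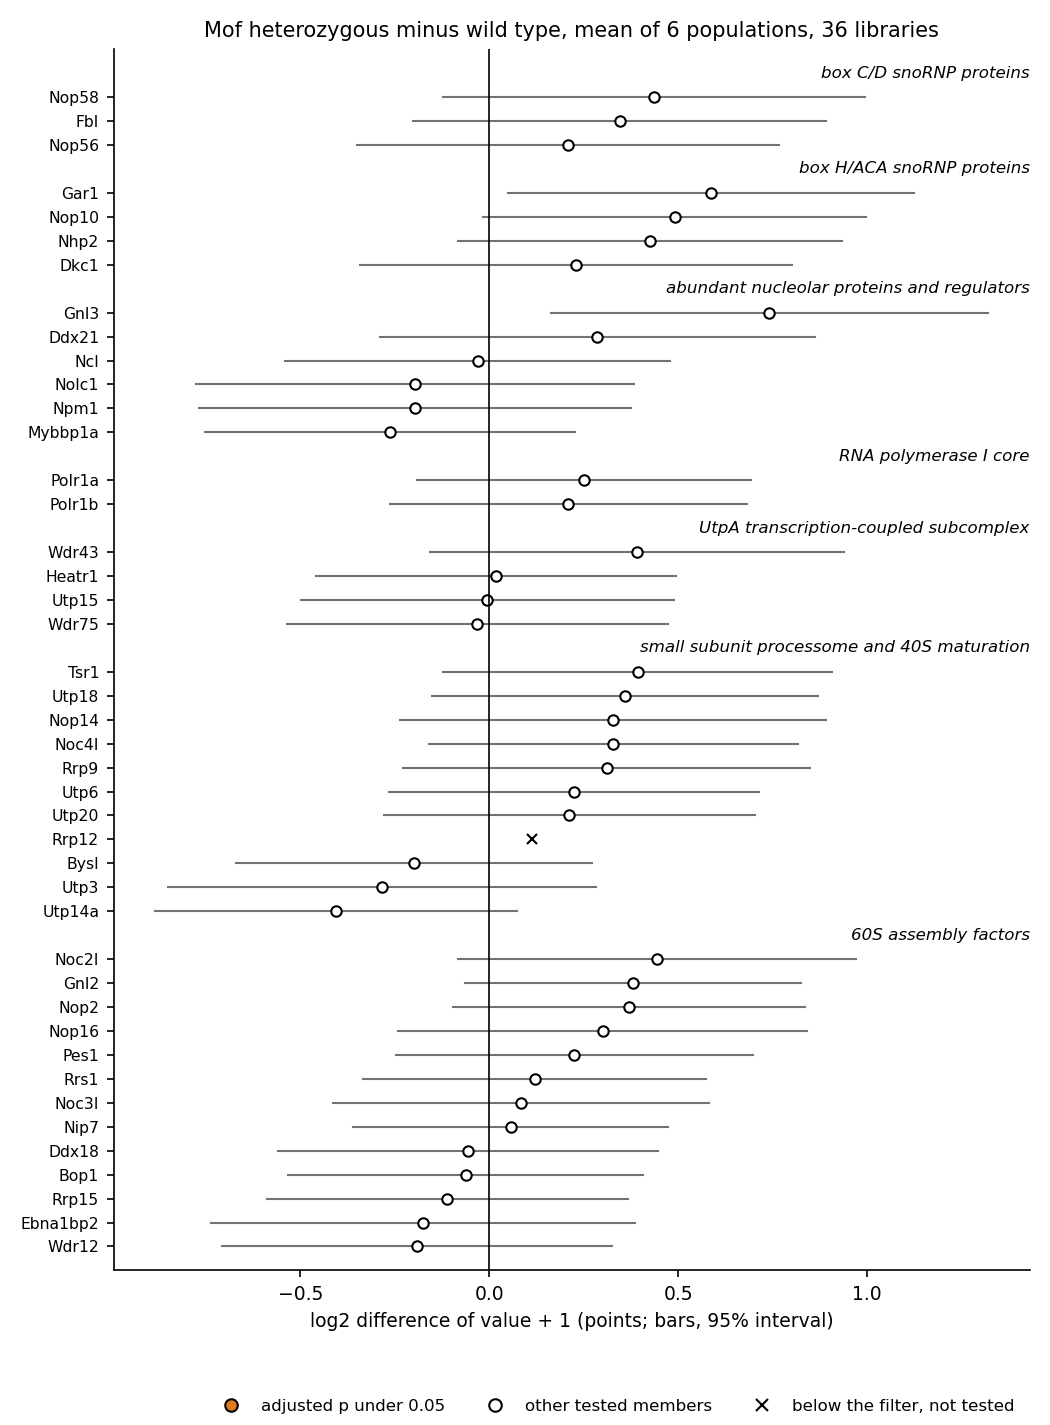
Log2 difference, Mof heterozygous minus wild type, averaged over the 6 populations (limma, bars are 95% intervals), for each member by role; a cross marks Rrp12, which was not tested. No point is filled, since 0 members passed an adjusted p of 0.05, and 29 of 43 lie right of 0.

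Within single populations limma again called 0 members; the share of all genes called was 0.0155% in HSC, 0.0776% in MPP2, 0.310% in MPP3 and 0.0310% in each of MPP4, CMP and MEP. In MPP2, 35 of 43 members were positive and 6 had an unadjusted p under 0.05, against 62.2% and 7.77% of all tested genes. Gnl3 had 0 counts in each wild-type MPP2 library and 252, 364 and 241 CPM in the heterozygous ones, with no overlap (log2 2.69, adjusted p = 0.152). With the 0 bounded by 3 counts over the group (88.3 CPM), the pooled heterozygous MPP2 level of Gnl3 (268.9 CPM) was 3.04 times that bound. The counting error of the heterozygous level was not included. In MPP3, 9 members had an unadjusted p under 0.05 (16.1% of all tested genes did), all higher in heterozygous libraries, and 34 of 43 were positive where 78.5% of all tested genes were. Ddx21 was at 0, 0 and 239.9 CPM in wild-type MPP3 and at 545, 513 and 419 in heterozygous MPP3 libraries (log2 2.81, adjusted p = 0.0516). Wild-type MPP2 and MPP3 were the shallow groups, whose depth cannot be told apart from genotype there. In HSC 3 members, in MPP4 2, in CMP 1 and in MEP 0 had an unadjusted p under 0.05, as did 6.49%, 7.45%, 3.72% and 5.28% of all tested genes. Gnl3 was called in MPP2 with a pseudocount of 0.1, with TMM, RLE and library total scaling, and without heterozygous HSC replicate 2. The 0 calls in MPP3 became 1 to 5 when any of 9 libraries was left out (5 without wild-type MPP3 replicate 3). Over all genes, leaving out 1 library gave 1 to 399 calls in MPP3, against 20 in the main test. The interaction of genotype with population called 0 members (0.0310% of all genes), with 4 at an unadjusted p under 0.05 (8.74% of all tested genes).

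All 103 further ribosome biogenesis genes sought were in the tables, some under an older symbol, and 86 were tested. Of these genes 11 rose and 0 fell, 97 of 103 were positive, and the median was 0.54. Over all tested genes 6.12% were called higher, 72.5% were positive, and the median was 0.26. The 3 with the largest fold were Rcl1 (log2 1.31), an enzyme of 18S processing, Ftsj3 (log2 1.21), a 60S methyltransferase, and Taf1d (log2 1.2), a subunit of the selectivity factor of RNA polymerase I. Averaged over populations, 0 of them were called between genotypes. Myc was the only one to rise among 10 genes of its network in the tables, of which 7 were tested (log2 1.47, adjusted p = 0.00827). Of 8 ribosomal protein genes, 3 rose: Rps3 (log2 1.05), Rps19 (log2 1.01) and Rplp0 (log2 0.89). Of 10 mitosis genes 0 were called by limma, 0 had an unadjusted p under 0.05 and 8 were negative, and their summed level was 2075 CPM in LSK and 964 in late libraries. Of 10 DNA replication genes only Mcm4 rose, while 8 were positive, 6 had an unadjusted p under 0.05, and the median was log2 0.73.

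Reads of some members may be shared with genes at the same place. Small nucleolar RNA genes lie inside Nop56, Nop58, Dkc1, Ncl, Gnl3, Wdr43 and Tsr1 in the mm10 annotation (GENCODE vM21). Protein-coding genes overlap Nop56, Dkc1, Nhp2, Gnl3, Mybbp1a, Heatr1, Rrp9, Bysl, Tsr1, Bop1, Pes1, Wdr12, Noc2l and Gnl2 on the opposite strand, and a processed pseudogene lies within Gnl2 on its own strand. How counting treated strand is not given in the sources used here. Nop2 (chromosome 6, 125131909 to 125144753) had no overlapping gene.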

How the data were processed

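RNA of 15-cell sorts was measured by CEL-Seq2 in 36 libraries. Reads were aligned with BWA 0.6.2-r126 to mm10, per the submitters' processing notes. For counter, annotation, molecular identifiers and strand setting, the methods are not given in the sources here. The authors deposited a signal per gene, counts divided by 1 size factor per library. Dividing each library by its step gave whole counts back (100% of values within 0.01). The wild-type MEP table lacks the names of 92 spike-ins, so its rows were named by position (across genes, which are no replicates, Spearman rho with wild-type CMP was 0.902, against 0.352 as deposited).

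The members and lists were chosen with earlier results of these data known. The design assumed counts; since the files held a signal, the main test was limma 3.58.1 (R 4.3.3) on log2(value + 1) with a trend, for genes with a mean of at least 1, Benjamini-Hochberg adjusted at 0.05 over all genes. Genotypes were compared on deposited values (6444 genes) and populations on counts rescaled to a total of 41227 (6501 genes). Each was 1 fit to all 36 libraries, so tests within 1 genotype or population took their spread from all of them. A group at 0 was bounded by 3 counts. The script was tested on simulated data. edgeR 4.0.16 and DESeq2 1.42.0 on recovered counts, other scalings, pseudocounts and filters, and left-out libraries were alternatives. Named members are those past the threshold in any comparison, the 10 most abundant, the extremes of each comparison with a call, and the most abundant of any other role. No 2 of 630 library pairs held identical values.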

Additional observations from a re-analysis of the deposited data

How the results depend on the processing

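No paired analysis was possible because each column is numbered by its barcode, and groups share none of these numbers. Gnl3, Nhp2 and Nop10 stayed higher and past the threshold in CMP and MEP against LSK in all 48 settings run on both genotypes, and Nop2 in all 46 that tested it. The main test called 15 members there and 6.12% of all genes higher. Member calls were 14 and 12 at pseudocounts of 0.5 and 0.1 (6.38% and 6.71% of all genes called higher). They were 10 with no filter (2.76%) and 8 with a mean of at least 5 (16 members tested, 9.63%). Other scaling gave 32 with TMM (21.5%) and 10 with RLE (3.93%). Count tests gave 11 in edgeR (16 tested, 17.9%), 12 in DESeq2 (4.29%) and 29 in edgeR on the genes of the main test (18.1%). There were 11 without the 6 shallow libraries (5.25%) and 11 without those rich in neutrophil markers (4.01%). Within the main fit, wild-type libraries gave 8 and heterozygous ones 0. The last 2, edgeR on the genes of the main test, the deeper libraries and the neutrophil setting were chosen after seeing the data. So were the comparisons within pools and the difference between genotypes. Where tested on both genotypes, Bop1 lost its call in DESeq2 alone (adjusted p = 0.0593), Wdr12 without the neutrophil-rich libraries (adjusted p = 0.0531), and Gnl2 and Heatr1 in the deeper libraries alone. The share of called genes that were higher was 78.2% in the main test, 91.6% with TMM, 69.3% with RLE, 60.5% in edgeR, 40.5% in DESeq2, 63.4% without the shallow libraries and 56.7% in the deeper ones. TMM moved the median of all genes from 0.26 to 0.45, and DESeq2 to -0.08; the members' median stood 0.52 to 0.84 above that of all genes over the settings. Leaving out 1 library gave 9 to 22 member calls, and 332 to 760 calls over all genes (509 in the main test).

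For the 6 populations over both genotypes (5 calls), counts were 3 at each pseudocount, 2 with no filter, 1 with a mean of at least 5, 14 with TMM, 3 with RLE, 8 in edgeR, 10 without shallow and 8 without neutrophil-rich libraries, and 1 to 11 with 1 library left out. In wild type (5 calls) they were 9 at a pseudocount of 0.1, 2 with a mean of at least 5, 17 with TMM, 3 without shallow and 9 without neutrophil-rich libraries, and 3 to 11 with 1 left out. In heterozygous libraries (0 calls) edgeR gave 1, and leaving out 1 library 0 to 1. Over all genes, leaving out 1 library gave 183 to 492 calls for both genotypes (269 in the main test). It gave 144 to 704 in wild type (245) and 32 to 140 in heterozygous libraries (49). The share of all genes called in these tests under the other settings is not given here. DESeq2 was not run for these tests.

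Between genotypes, 0 members were called on average in every setting run. Only 16 members were tested in each of edgeR, DESeq2 and the filter of a mean of at least 5. Within MPP2 a pseudocount of 0.1, TMM, RLE and library total scaling each gave 1 (Gnl3), and leaving out 1 library 0 to 1. Within MPP3 there were 1 (pseudocount 0.5), 3 (pseudocount 0.1), 1 (mean of at least 5), 5 (TMM) and 4 (without neutrophil-rich libraries) calls, and 0 to 5 with 1 library left out. Over all genes, leaving out 1 library gave 0 to 24 calls in MPP2 (5 in the main test) and 1 to 399 in MPP3 (20). The interaction gave 1 (Gnl3) without the neutrophil-rich libraries. The average for Npm1 turned to 0.019 in edgeR and ran from -0.34 to 0.084 with 1 library left out (0.084 without heterozygous HSC replicate 2). Ncl turned to 0.16 with TMM and 0.025 in edgeR; with 1 library left out it ran from -0.16 (wild-type MPP4 3) up, turning to 0.12 (without heterozygous HSC 2), 0.02 (wild-type MPP2 2), 0.07 (wild-type MPP4 1), 0.0045 (wild-type MPP4 2), 0.03 (heterozygous MPP4 3) and 0.02 (wild-type MEP 1). Nip7 turned to -0.029 without the shallow libraries, and in CMP and MEP against LSK to 0.27 with TMM and 0.19 in edgeR on the genes of the main test. The causes were not tested. Depth limits sparse members most: in heterozygous HSC replicate 2 a single count is worth 634 CPM.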
